A study of Mus musculus with 2 samples.

Results

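The regions described here are weak peaks of histone H3 trimethylated at lysine 4 (H3K4me3) that lie inside protein-coding genes and far from any annotated gene start. They were taken from the deposited set of replicated peaks on the mouse build mm10. A peak was kept when its deposited enrichment value, the signal per peak whose scale is not stated, was below 10, when the whole peak lay inside the span of a GRCm38 protein-coding gene, and when its nearest edge was more than 5000 bp from the 5' end of every gene of any biotype. The rule calls such peaks candidate intronic enhancers. It selected 6396 of 37550 replicated peaks, or 17.0%, which together covered 3.59 Mb. The other replicated peaks were 908 strong intragenic peaks at the same distance with a value of 10 or more, 7106 intergenic peaks and 23140 peaks within 5000 bp of a 5' end. The members were thus chosen by the enrichment value itself, so their values are given below as a description. The members nearest the threshold had values of 9.992 to 9.997, and the strong peaks nearest to it 10.003 to 10.013. The members closest to a 5' end lay 5006 to 5010 bp away, and peaks left out for their distance began at 4998 bp.

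H3K4me3 was mapped by chromatin immunoprecipitation and sequencing in MEL cells, an immortalised mouse erythroleukaemia line, after 5 days in 2% dimethyl sulphoxide (DMSO). DMSO is a textbook inducer of the maturation of these cells towards haemoglobin synthesis. There was 1 group of 2 biological replicates, both from the same line and labelled with the same biosample, so the spread between them may be technical. Untreated cells were not analysed here, so nothing below is a change with DMSO, and no test was run: shares have 95% Wilson intervals and densities exact Poisson intervals, which cover counting error only. Read depth is unknown because the sets hold no read counts.

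H3K4me3 is laid down by the SET1 and MLL methyltransferase complexes and is strongest over the CpG-rich promoters of active genes. Enhancers typically carry monomethylated H3K4 and much less of the trimethyl form, and weak H3K4me3 signal can also come from promoters that start transcription inside a gene. In erythroid cells, many enhancers lie in introns and are bound by GATA1 at GATA sequences, by TAL1 at E-boxes and by KLF1 at CACCC-type sequences, with LDB1 as a bridging cofactor.

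The sequences below show members on a transcript start inside a gene, and sites of another deposited peak set away from any start. The first 4 are promoter sequences of RefSeq (GRCm38.p6), from 250 bases before to 50 after a transcript start that lies inside the host gene and under a weak intragenic peak. They belong to Uros (uroporphyrinogen III synthase of heme synthesis, chr7:133702451-133702750, minus strand), Sox6 (a factor that silences embryonic globin, chr7:115846091-115846390, minus strand), Ldb1 (the bridging cofactor of erythroid enhancers, chr19:46039572-46039871, minus strand) and Mst1r (the Ron receptor kinase, chr9:107914753-107915052, plus strand). Each is printed 5' to 3' on the strand of its gene, with matches to AGATAA or TGATAA or AGATAG or TGATAG on either strand in capitals.
Uros: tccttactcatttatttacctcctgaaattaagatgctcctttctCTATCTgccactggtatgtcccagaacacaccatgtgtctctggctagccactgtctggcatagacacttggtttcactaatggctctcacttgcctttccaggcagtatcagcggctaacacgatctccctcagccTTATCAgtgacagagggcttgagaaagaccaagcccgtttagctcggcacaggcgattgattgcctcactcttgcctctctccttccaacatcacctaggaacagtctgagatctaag
Sox6: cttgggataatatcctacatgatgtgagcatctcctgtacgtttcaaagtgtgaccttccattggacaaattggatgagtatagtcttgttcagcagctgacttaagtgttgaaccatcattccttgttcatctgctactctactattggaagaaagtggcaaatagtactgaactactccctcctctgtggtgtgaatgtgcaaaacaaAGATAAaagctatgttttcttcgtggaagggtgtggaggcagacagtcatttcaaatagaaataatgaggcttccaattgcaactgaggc
Ldb1: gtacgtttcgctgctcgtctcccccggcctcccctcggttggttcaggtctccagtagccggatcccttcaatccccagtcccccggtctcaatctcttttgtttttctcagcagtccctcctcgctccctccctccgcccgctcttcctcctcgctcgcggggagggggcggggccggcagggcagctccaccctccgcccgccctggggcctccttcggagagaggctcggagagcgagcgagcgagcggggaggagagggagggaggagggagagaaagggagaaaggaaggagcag
Mst1r: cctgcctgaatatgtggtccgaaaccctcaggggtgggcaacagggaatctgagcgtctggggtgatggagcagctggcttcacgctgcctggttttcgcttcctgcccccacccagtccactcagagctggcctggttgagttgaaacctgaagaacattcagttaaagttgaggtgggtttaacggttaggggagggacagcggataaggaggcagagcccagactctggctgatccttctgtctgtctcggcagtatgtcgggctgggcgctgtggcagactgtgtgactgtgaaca

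Intronic sites far from any start are shown by 4 windows of 300 bases from the older deposited peak set on the build mm9 (NCBIM37), which comes with a matching genome. No coordinates were converted between the builds, so these windows are not shown to be weak intragenic peaks. Each is the centre of an older-set peak that lies wholly in introns of a host gene from the erythroid gene lists, read on the plus strand, with the same capitals. They lie in Add3 (chr19:53268864-53269163), which encodes an adducin of the red cell membrane skeleton, in Tec (chr5:73209435-73209734), a kinase in Kit and erythropoietin signalling, in Kit (chr5:76020312-76020611), the stem cell factor receptor, and in Xk (chrX:8875472-8875771), a red cell membrane transporter. They were chosen among the older-set peaks with the highest deposited values in erythroid-list hosts, leaving out the 3 that hold no GATA match and 1 that is not reported here.
Add3: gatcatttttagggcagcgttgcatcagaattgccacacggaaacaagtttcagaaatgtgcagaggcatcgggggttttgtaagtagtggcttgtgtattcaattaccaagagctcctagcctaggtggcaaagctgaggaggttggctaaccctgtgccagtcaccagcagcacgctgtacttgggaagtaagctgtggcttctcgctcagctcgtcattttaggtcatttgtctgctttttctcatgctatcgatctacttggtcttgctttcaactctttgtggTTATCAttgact
Tec: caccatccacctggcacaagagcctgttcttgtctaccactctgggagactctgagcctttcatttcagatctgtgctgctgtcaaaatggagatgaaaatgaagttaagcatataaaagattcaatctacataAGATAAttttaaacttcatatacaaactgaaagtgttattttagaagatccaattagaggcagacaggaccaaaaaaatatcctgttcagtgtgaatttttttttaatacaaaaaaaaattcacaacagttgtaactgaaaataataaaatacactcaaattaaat
Kit: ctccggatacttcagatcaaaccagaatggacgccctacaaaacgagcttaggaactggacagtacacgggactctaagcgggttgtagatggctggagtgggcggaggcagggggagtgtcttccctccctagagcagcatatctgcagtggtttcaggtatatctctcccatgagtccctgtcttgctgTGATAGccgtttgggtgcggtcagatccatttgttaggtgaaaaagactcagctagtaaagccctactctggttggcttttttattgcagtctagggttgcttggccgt
Xk: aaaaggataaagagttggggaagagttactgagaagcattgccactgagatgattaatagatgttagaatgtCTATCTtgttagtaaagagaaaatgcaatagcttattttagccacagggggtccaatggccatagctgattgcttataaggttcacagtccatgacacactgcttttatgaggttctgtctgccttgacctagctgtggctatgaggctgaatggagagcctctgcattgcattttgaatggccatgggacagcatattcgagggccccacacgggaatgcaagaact

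The Uros promoter sequence held 2 GATA matches and the Sox6 sequence 1, while those of Ldb1 and Mst1r held 0. The Ldb1 sequence had 23 CG pairs in 300 bases, against 5 in Uros, 2 in Sox6 and 9 in Mst1r. Of the intronic windows, which were picked to hold a GATA match, each held 1. A match says only that the letters are present.

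Weak intragenic peaks were low by the rule, and they were also narrow. Their enrichment value in the replicated set had a median of 4.28, with quartiles of 3.32 and 5.85 and a minimum of 1.60. In the replicates' own sets, the highest overlapping peak had a median of 4.38 in replicate 1 and 4.38 in replicate 2. Strong intragenic peaks, by construction higher, had 11.8 and 12.7, and intergenic peaks 4.89 and 4.85. Width, which the rule did not use directly, had a median of 431 bp in the weak intragenic peaks, against 1260 bp in strong intragenic, 471 bp in intergenic and 932 bp in 5'-end peaks. In width, the weak intragenic peaks were closest to intergenic peaks. A q-value over 0.05 was deposited for 67 of them, or 1.05%, against 0.802% of intergenic and 0.477% of all replicated peaks. Those sets have no upper cut on the value, so the shares are no like comparison.

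**Figure D1:**
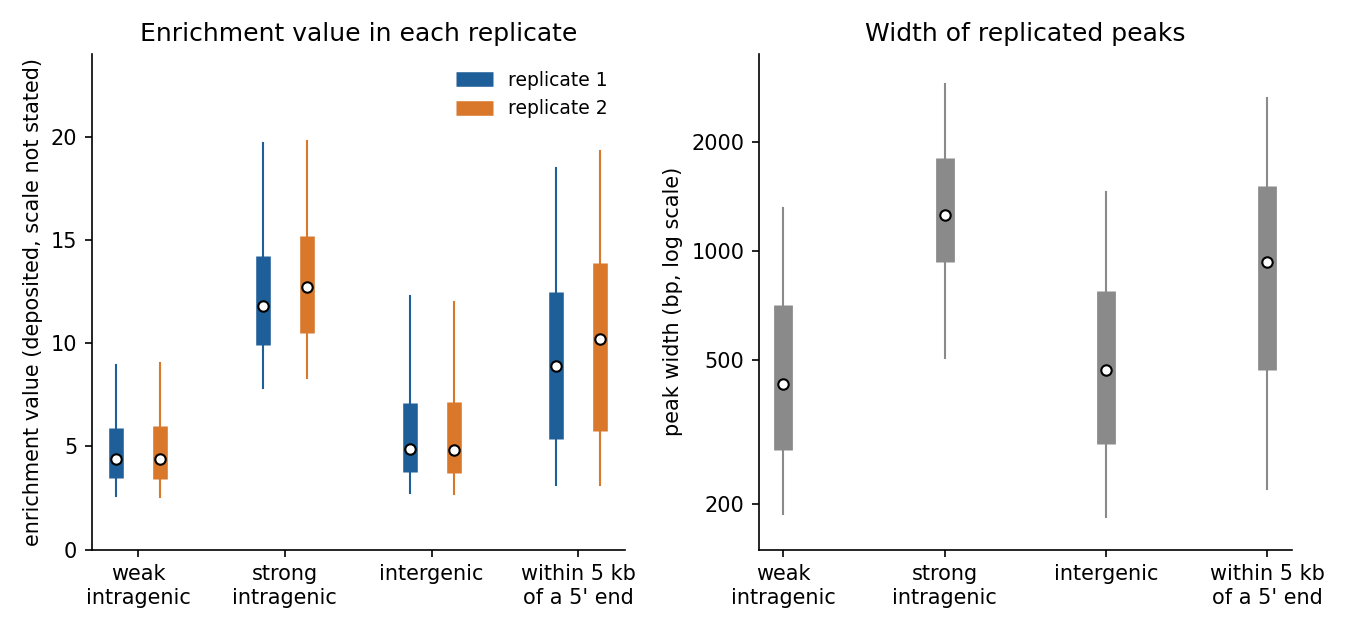
Left, deposited enrichment value (scale not stated) of the highest overlapping peak in replicate 1 (blue) and replicate 2 (orange) for 4 classes of replicated peaks; right, peak width in bp on a log scale. Circles are medians, thick bars quartiles and thin lines the 5th to 95th percentiles. Weak intragenic peaks have a median of 4.38 in both replicates by a rule that keeps only values below 10, and a median width of 431 bp, against 471 bp in intergenic peaks.

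The replicates placed most of these peaks at the same sites. A peak of replicate 1 overlapped 92.9% of them and a peak of replicate 2 overlapped 94.7%. Both did so at 5613, or 87.8% (86.9% to 88.5%), against 93.0% of all replicated peaks, 89.5% of intergenic and 100% of strong intragenic peaks. Replicate 1 alone covered 329, replicate 2 alone 446 and neither covered 8. The replicated set was made from these replicates, so the overlap describes that set and is no independent check. Intergenic and all replicated peaks have no upper cut on the value, and among members with values below 5 the share in both was 81.6%. Where both replicates had a peak, the median of log2 (replicate 1 / replicate 2) was 0.00 with an SD of 0.47, and 190 peaks, or 3.38%, differed by more than 2-fold. Across those peaks the log2 values had a Pearson correlation of 0.644, against 0.760 in intergenic peaks. The peaks of a correlation share libraries and are not independent, and the narrow range of values set by the rule lowers it.

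Weak intragenic peaks had a near neighbour about as often as strong intragenic peaks and more often than intergenic ones. The shares over all replicated peaks given here include the 23140 peaks within 5000 bp of a 5' end, which the rule leaves out. They are therefore no like comparison. Another replicated peak of any class was within 1000 bp of 46.6% of them (45.4% to 47.8%), against 48.2% of strong intragenic peaks, 37.5% of intergenic peaks (36.4% to 38.7%), 72.3% of 5'-end peaks and 60.8% of all replicated peaks (60.3% to 61.3%). A peak with a value of 10 or more was within 5000 bp of 12.5%, and the median distance to such a peak was 33634 bp. Within 1000 bp of a gene's 3' end lay 1.74%, against 2.20% of strong intragenic, 2.46% of intergenic and 5.00% of all replicated peaks. Their centres were a median of 37875 bp from the 5' end of the host gene, with quartiles of 15546 and 93380 bp. With the span of the host cut into 5 equal pieces from its 5' end, the pieces in that order held 18.4%, 23.8%, 21.6%, 18.3% and 17.8% of the members, so they were spread broadly. The rule empties a stretch of the first piece.

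The rule measures distance to 1 annotated 5' end per gene, so a start of a shorter transcript inside the gene can lie under a member. The RefSeq promoter table gave further starts for all chromosomes used except chromosome 18. On the others, 110 of 6181 weak intragenic peaks overlapped a RefSeq start, or 1.78% (1.48% to 2.14%), against 23.4% of strong intragenic peaks (20.7% to 26.3%) and 18.1% of all replicated peaks. Their summit was within 1000 bp of such a start in 5.00%, against 36.5% of strong intragenic peaks. Overlap with an annotated start gives position alone, and whether the members on a start are intronic enhancers or internal promoters was not tested. Counting those beside a start as well, 339, or 5.48%, were within 1000 bp of one. The table has an entry for a host gene of 5083 members, or 79.5%, and among these 109 overlapped a start, or 2.14% (1.78% to 2.58%). For members of other hosts, no overlap says nothing about a start of their own gene. Of the 110, 105 overlapped 112 starts of their own host, in 104 genes. These 105 had a median width of 1068 bp and median enrichment values of 7.41 in replicate 1 and 7.96 in replicate 2, above the medians of all members. A wide peak covers a start more easily than a narrow one, so picking by overlap itself favours width. Members of equal width were not compared. Of their hosts, 58, or 55.8% (46.2% to 64.9%), were also marked at the annotated 5' end. That was near the 53.0% of all protein-coding genes that could host such a peak. All 112 promoter sequences matched the mm9 genome exactly once, and 96 of those places, or 85.7%, carried a peak of the older set. The same share over all RefSeq starts or all members was not computed, so the 85.7% has no background beside it.

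The starts printed above are among the 112, and all but that of Uros carried an older-set peak. The Uros start lay 7967 bp inside the gene under a 958 bp peak with values of 7.35 in replicate 1 and 6.85 in replicate 2, beside 12.6 and 14.1 at the annotated 5' end. Uros is known for an erythroid promoter downstream of its housekeeping one. The Mst1r start lay 8145 bp inside, under a peak of 5.89 in replicate 1 and 10.6 in replicate 2, higher in both than the 2.20 and 4.08 at its annotated 5' end. An internal Mst1r promoter is known to give the short receptor tied to susceptibility to Friend virus, the agent behind MEL cells. The Ldb1 start carried 8.41 and 11.0, and the annotated 5' end of Ldb1 had no peak in either replicate. The Sox6 start carried 9.77 and 7.18, 194636 bp inside the gene, beside 9.13 and 11.3 at the 5' end. Steap3, the endosomal iron reductase of red cell precursors, had an internal start with 6.44 in replicate 1 and 8.60 in replicate 2, against 3.58 and 4.08 at its 5' end.

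Host genes were next compared with all genes that could host such a peak. Marked genes are those with a peak of each replicate within 1000 bp of the 5' end. It was eligible when its strand was known and part of its span was more than 5000 bp from every 5' end. Of 15897 eligible protein-coding genes, 3017, or 19.0% (18.4% to 19.6%), hosted at least 1 weak intragenic peak, and 6 further hosts had no strand. Hosts were marked at their 5' end in 54.1% (52.3% to 55.9%), close to the 53.0% of all eligible genes and the 52.8% of genes without such a peak. In 1519 hosts there was 1 peak, in 252 there were 5 or more, and the maximum was 18. There were 62 members in more than 1 gene.

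Per Mb of eligible span, marked and unmarked genes stood apart. The 8429 marked genes had 337 Mb of such span and the 7468 unmarked genes 528 Mb. Marked genes held 10.6 weak intragenic peaks per Mb, against 5.47 in unmarked genes and 7.45 over all. The replicates' own peaks gave 15.2 against 7.58 in replicate 1 and 15.2 against 7.84 in replicate 2, so the order was the same in both. The gap in weak peaks depended on gene size. Genes with up to 10000 bp of eligible span had 9.85 per Mb when marked and 9.72 when unmarked, while those with more than 100000 bp had 9.80 and 4.02. Strong intragenic peaks were at 1.24 per Mb in marked genes and 0.944 in unmarked ones over all sizes. Their order held only above 100000 bp of eligible span, at 0.930 and 0.505, and was the other way round in the 3 shorter classes, with 1.67 and 2.82 in the shortest. In the class with more than 100000 bp, 63.5% of marked genes hosted a member (59.9% to 66.9%), against 45.1% of unmarked genes (42.4% to 47.8%).

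With genes of all lengths pooled, density was highest in the distance class next to the excluded zone. Between 5000 and 10000 bp from the host's own 5' end, marked genes held 17.5 members per Mb (16.1 to 18.9) and unmarked genes 9.83 (8.75 to 11.0). Between 20000 and 50000 bp the densities were 10.3 and 7.63, and beyond 200000 bp they were 6.08 (5.29 to 6.95) and 2.87 (2.63 to 3.13). Marked genes were above unmarked ones in each of the 6 distance classes. The far classes hold long genes alone, so genes longer than 200000 bp were also read by themselves, a choice made after the data were seen. In the 266 marked ones, density was 13.1 per Mb (7.50 to 21.3) between 5000 and 10000 bp, 16.0 (13.3 to 19.2) between 20000 and 50000 bp and 6.08 beyond 200000 bp. In the 714 unmarked ones it was 3.38 (1.69 to 6.04), 3.63 (2.85 to 4.57) and 2.87 (2.63 to 3.13) in the same classes. Long marked genes were thus lower beyond 200000 bp than in the classes up to 100000 bp, and long unmarked genes stayed between 2.87 and 3.63 per Mb in all 6 classes. Members of marked hosts had a median value of 4.09 and those of unmarked hosts 4.44. Another peak was within 1000 bp of 50.8% of members of marked hosts, against 41.4% of those of unmarked hosts.

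**Figure D2:**
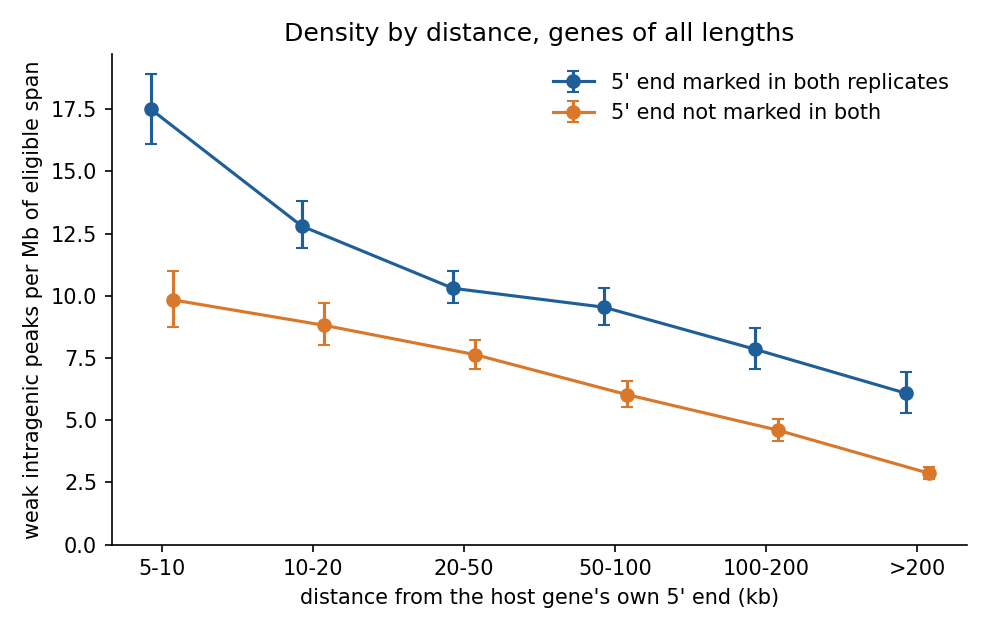
Weak intragenic peaks per Mb of eligible span, by distance from the host gene's own 5' end in kb, for genes of all lengths whose 5' end is marked in both replicates (blue) and other genes (orange). Bars are 95% Poisson intervals for counting error. Density is 17.5 per Mb in marked and 9.83 in unmarked genes nearest the 5' end and 6.08 and 2.87 beyond 200000 bp, where long genes alone remain.

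Among chromosomes, the densities of member and gene pairs were highest on chromosome 19, at 11.5 per Mb, and chromosome 11, at 11.0 per Mb. Chromosome X had 4.21 per Mb and chromosome Y held 1 member.

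The 14 gene lists were read against the 19.0% of eligible genes that hosted a member and the 7.45 members per Mb over all. Of 97 eligible genes on the 6 erythroid lists, 47 were hosts, or 48.5% (38.8% to 58.3%), with 132 members at 28.3 per Mb. The replicates' own peaks gave 40.2 per Mb in replicate 1 and 41.4 in replicate 2, against 10.6 and 10.8 over all eligible genes. Of these genes 88.7% were marked at the 5' end, and the 28.3 per Mb also stood above the 10.6 per Mb of all marked genes. Density itself differed with gene size, from 10.9 per Mb in genes with 10000 to 30000 bp of eligible span to 5.58 in those with more than 100000 bp, so it does not remove the differences in span between lists.

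By role, hosts were 11 of 18 eligible erythroid transcription factors, 6 of 15 genes of heme synthesis and iron uptake, 15 of 26 genes of the red cell membrane and carbonic anhydrases, 10 of 19 genes of erythropoietin and Kit signalling and 5 of 15 genes of late maturation. Densities on these 5 lists lay between 20.6 and 31.4 per Mb. None of the 4 eligible genes of the globin loci was a host (0% to 49.0%), and their eligible span was only 0.0530 Mb. Among the other lists, megakaryocyte and platelet genes had 6 hosts of 10 and 20.4 members per Mb, and stem and progenitor genes 6 of 16 and 8.34 per Mb. Granulocyte and macrophage genes had 1 host of 9, and B cell genes 5 of 9 with 5.80 per Mb. T and NK cell genes reached 23.2 per Mb from 4 hosts of 15, with 9 of their 17 members in Prkcq, a protein kinase C of T cell receptor signalling.

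Long genes gave a caution on counting hosts alone. Of 20 neuronal genes with long spans, 16 hosted a member, or 80.0%, yet their density was 1.78 per Mb, the lowest of the lists that had a member and below the 4.02 per Mb of all unmarked genes with more than 100000 bp of eligible span. Only 1 of the 20 was marked at its 5' end. Ubiquitous regulators with long genes, 22 of 25 of them marked, had 12 hosts and 13.9 members per Mb. H3K4 methylation writers and erasers had 4 hosts of 18 and 8.54 per Mb.

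**Figure D3:**
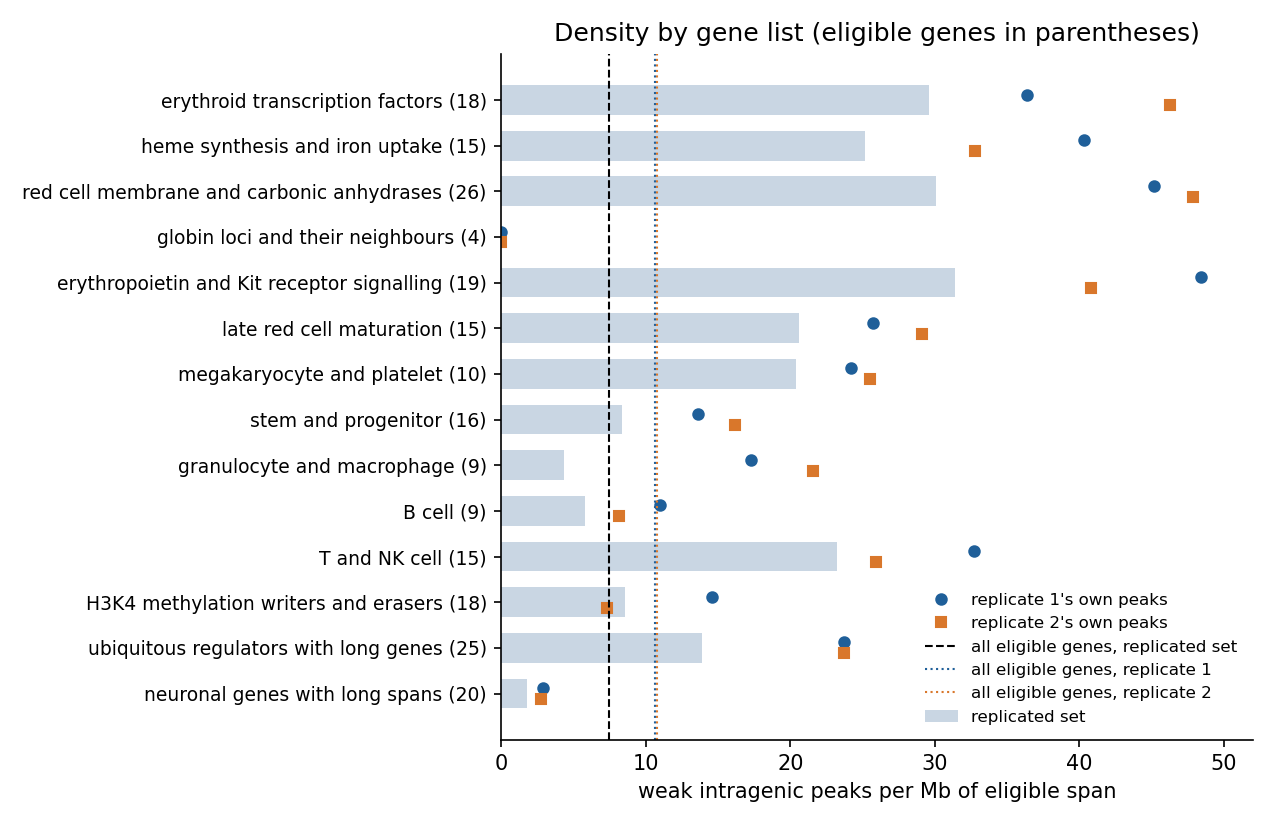
Weak intragenic peaks per Mb of eligible span for 14 gene lists: bars for the replicated set, blue circles and orange squares for the own peaks of replicate 1 and replicate 2, and vertical lines for all eligible protein-coding genes. Erythroid lists other than the globin loci lie between 20.6 and 31.4 per Mb in the replicated set, against 7.45 over all genes, and long neuronal genes lie at 1.78.

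Single genes show how the members are laid out. Inpp5d, which encodes the phosphatase SHIP1 that restrains cytokine signalling in blood cells (chromosome 1, 87620312 to 87720510), held 10 members in a row between 5719 and 38781 bp from its 5' end, or 106 per Mb. Their values ran from 2.51 to 6.17 in replicate 1 and from 3.14 to 6.75 in replicate 2, and 8 of the 10 were overlapped in both. None stood far above the rest. The 5' end of Inpp5d carried 11.6 in replicate 1 and 12.5 in replicate 2.

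Bcl11a, the repressor of fetal globin genes in humans, had 7 members in 3 groups. The first group was the highest, with a peak of 1823 bp (chr11:24098468-24100290) at 22815 bp from the 5' end that had 9.10 in replicate 1 and 4.81 in replicate 2. Next to it a peak of 927 bp had 4.86 and 4.48. The second group of 4 members lay between 53098 and 60473 bp, with values of 3.19 to 3.63 in replicate 1 and 3.36 to 3.65 in replicate 2, and 1 of the 4 had no peak in replicate 1. The last member, at 72393 bp, had 2.58 in replicate 2 and no peak in replicate 1. An intron of human BCL11A is known to hold an erythroid enhancer, and no match between that enhancer and these mouse sites was made here.

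Sox6 had 10 members over a gene of more than 500 kb, several of them paired. Beside the internal start, the highest was an 845 bp peak at 490603 bp (chr7:115549751-115550595) with 8.70 in replicate 1 and 7.49 in replicate 2. It is the second site of Sox6 above 7 in both replicates. A further 3 members sat side by side, at 209478, 209922 and 210424 bp, with 2.96, 5.48 and 5.48 in replicate 1 and 2.02, 4.47 and 3.13 in replicate 2. Runx1, a founder of blood formation, had 6 low members with values of 3.01 to 4.01 in replicate 1 and 2.21 to 4.40 in replicate 2. Foxo3, which supports late erythroid maturation, had 4 members in a cluster 27642 to 30671 bp from its 5' end. Zfpm1, the GATA1 cofactor FOG1, had 2, the higher with 5.55 and 4.45. Nfe2, a factor of globin expression, had a 1600 bp peak with 8.33 in replicate 1 and 7.47 in replicate 2, beside 4.40 and 7.25 at its annotated 5' end. Of the further hosts among these factors, Tfdp2 had 2 members and Cbfa2t3, E2f2 and Ikzf1 had 1 each.

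**Figure D4:**
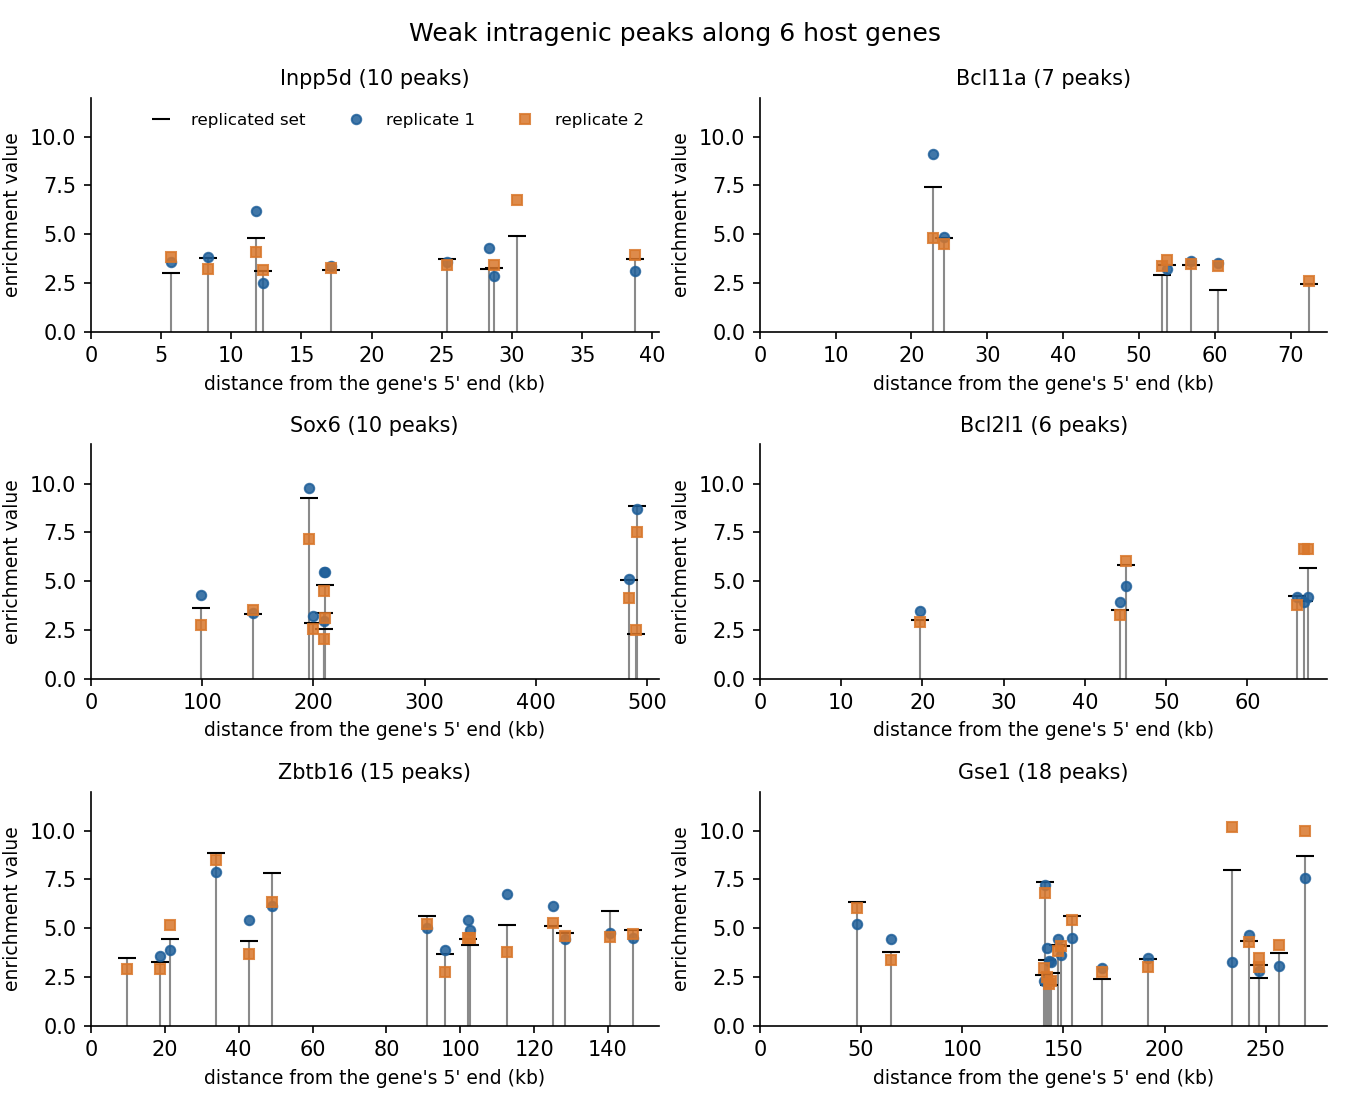
Enrichment value of each weak intragenic peak against the distance of its centre from the gene's 5' end in kb, for 6 host genes. Black dashes are the replicated set, blue circles replicate 1 and orange squares replicate 2, and a missing symbol means no peak in that replicate. Inpp5d has 10 low peaks in a row, Bcl11a 3 groups and Sox6 distinct sites at 195752 and 490603 bp that stand above their neighbours.

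Among the genes of the red cell membrane, Gypc (glycophorin C) had 6 members between 5781 and 21154 bp from its 5' end, all overlapped in both replicates, with values of 2.65 to 4.15 in replicate 1 and 2.08 to 4.39 in replicate 2. Add3 had 5, of which the 2309 bp peak at 54064 bp stood out with 10.1 in replicate 1 and 8.06 in replicate 2. The older-set window of Add3 printed above lies at 54078 bp from the 5' end on mm9. Ank1 (ankyrin of the membrane skeleton) had 4 members and no peak at its annotated 5' end. Its highest was a 402 bp peak at 53012 bp with 8.19 and 8.20, followed by a 1398 bp peak with 6.40 in replicate 1 and 6.85 in replicate 2. Ank1 is known to be read from a separate erythroid promoter, which was not looked for here. Rhag (the Rh-associated glycoprotein) had 3 members between 5774 and 6572 bp. Further hosts of this list were Add1, Add2, Car1, Cd44, Dmtn, Epb41, Rhd, Sptb, Tmcc2 and Xk, with 1 or 2 members each.

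In receptor signalling, Bcl2l1 (the survival factor BCL-XL, induced by erythropoietin) had 6 members in 3 places, at 19679 bp, near 45026 bp and near 67457 bp from its 5' end. The 872 bp peak at 45026 bp had 4.73 in replicate 1 and 6.05 in replicate 2, and the annotated 5' end had no peak in either. Kit had 4 members and likewise no 5' end peak in either replicate. Those at 49486 and 58430 bp were the highest, with 4.74 and 6.79 in replicate 1 and 10.6 and 9.38 in replicate 2, so replicate 2 was higher at both. Gab2, a docking protein, had 5 members up to 129180 bp from its start, and its highest had 6.51 and 6.24. Tec had 3, the highest with 8.00 and 7.97, and Pik3cd (a catalytic subunit of phosphatidylinositol 3-kinase) had 3. Jak2, the kinase of the erythropoietin receptor, had 1 peak of 1059 bp with 9.30 in replicate 1 and 7.81 in replicate 2. Mst1r, Pik3r1 and Stat5b completed the list.

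Heme and iron genes had few members. Slc25a38, the mitochondrial glycine carrier, had 1 of 1314 bp with 8.44 in replicate 1 and 7.59 in replicate 2. Alas2, the first enzyme of erythroid heme synthesis, had 1 at 17114 bp with 3.14 in replicate 1 and none in replicate 2, and both members of Fech (ferrochelatase) were likewise overlapped in replicate 1 alone. Slc11a2, an iron transporter, had 2, among them one of the 5 lowest members with 2.66 and 1.87. In late maturation, Bnip3l, which clears mitochondria, had 4 members between 7172 and 10456 bp from its 5' end with 3.48 to 5.03 in replicate 1 and 2.52 to 4.81 in replicate 2. Ube2o, Alox15, Fbxo7 and Atg7 had 3, 2, 2 and 1 members.

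On lists of other cell types and functions, at most 3 hosts each are named. Vwf (von Willebrand factor of platelets) had 6 members, all overlapped in both replicates, and no peak at its 5' end, with values of 2.65 to 7.17 in replicate 1 and 2.69 to 8.16 in replicate 2. Zfpm2 and Fli1, the next megakaryocyte-list hosts, had 4 and 2. Of stem and progenitor genes, Mllt3 had 5, Erg 4 and Meis1 3. Spi1, the myeloid factor PU.1 whose activation by virus insertion blocks MEL precursors, had 1 low member with 2.65 in replicate 1 and 2.58 in replicate 2. Foxp1, Bach2 and Bank1 of the B cell list had 4, 3 and 1. Prkcq, Runx3 and Lef1 of the T and NK cell list had 9, 4 and 3, and 8 of the 9 in Prkcq were overlapped in both replicates, although its 5' end had no peak in either. Among H3K4 writers and erasers, Kdm2b had 3, Kmt2c 2 and Kdm1a 1. Mbnl1, a splicing regulator, had 10 members at 65.7 per Mb, and Arid1b and Tcf12 had 6 each. Cadm2 and Nrxn3, adhesion proteins of neurons, had 8 and 7 at 8.48 and 4.38 per Mb, both without a 5' end peak in either replicate.

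None of the 10 hosts with the most members was on a list. Gse1, which encodes a coiled-coil protein found with histone deacetylases, led with 18, Zbtb16, a zinc finger repressor, had 15 and Rere, an atrophin-type corepressor, had 14. Cradd, Med12l, Nav2, Nfia, Pde4d and Trerf1 had 13 each and Arl15 had 12. Gse1, Med12l, Nav2, Nfia and Pde4d had no 5' end peak in either replicate. The density was 90.0 per Mb in Cradd and 88.5 in Zbtb16, against 10.6 in Pde4d, whose eligible span was 1225 kb. Of the 15 Zbtb16 members 14 were overlapped in both replicates. Zbtb16 values spanned 3.55 to 7.88 in replicate 1 and reached from 2.77 up to 8.48 in replicate 2.

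The widest member lay in Taok3, a kinase gene, with 4972 bp and values of 8.91 in replicate 1 and 10.3 in replicate 2. The next were in Myo1e, Popdc2, Ncoa4, Bcor, Tmigd3, Pde10a, Adcy9, Nadk2 and Mllt3, from 4249 down to 3680 bp, and those of Ncoa4 and Mllt3 overlapped an internal RefSeq start. In Myo1e the value was 4.64 in the replicated set, against 13.0 in replicate 1 and 12.8 in replicate 2. For this peak the threshold therefore rests on which set the value is read from. It was not alone, as members in Myct1, Urgcp and Usp45 were also above 10 in both replicates. They had 14.1, 17.3 and 12.5 in replicate 1 and 11.1, 10.8 and 12.4 in replicate 2. Those in Urgcp and Usp45 overlapped an internal RefSeq start. So did further members above 10 in both replicates, such as those in Xiap, Hint3 and Tlr6. The number of such members was not counted. Most members stayed below 10, with a 95th percentile of 8.92 in replicate 1 and 9.02 in replicate 2. The highest members lay in Tbc1d19, C77080, Pde3b, Myct1 and the shared span of Med12l and P2ry14, and the lowest in Ptpre, Cubn, Slc11a2, Zeb1 and Tmem131.

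Exons, introns and motifs were read on the older set, whose build has a full annotation. Its own input files are not stated, so it is not taken as an independent sample. Its counterparts are peaks inside a protein-coding gene and more than 5000 bp from the 5' end of every transcript, with no cut on its values. There were 1318 of 15810, or 8.34%. Their median width was 1100 bp, against 431 bp in the weak and 1260 bp in the strong intragenic peaks on mm10. By width the counterparts were nearer the strong peaks, so what follows does not describe the weak peaks alone. Of the 1035 host genes of counterparts 785, or 75.8%, also hosted a member on mm10, and these were 26.0% of the 3023 member hosts. Wholly in introns were 1073, or 81.4% (79.2% to 83.4%), while 15.5% overlapped a coding exon and 2.81% a non-coding exon of a protein-coding gene. Exons made up 5.59% of the bases of counterparts and 5.02% of all eligible span, so their share was near the background.

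GATA matches were more frequent at the centres of these counterparts than in the other windows read. At least 1 match stood in 55.2% of 300-base windows (52.5% to 57.9%), against 42.9% at all other older-set peaks (41.6% to 44.3%), 17.1% at peaks on protein-coding 5' ends (16.4% to 17.9%) and 29.8% of all RefSeq promoter sequences of that length. The other peaks mix intergenic peaks with peaks near starts, and intergenic peaks were not read by themselves. Of the 112 promoter sequences at internal starts under members, 29.5% held a match (21.8% to 38.5%), near the share of all promoter sequences. Windows centred 2000 bp to either side of the counterparts, a comparison added after the data were seen, held one in 42.3% (40.4% to 44.2%). The flanks of 5'-end peaks had 41.7% and those of all other peaks 42.3%, so the flanks of each class were alike and the counterparts' centres stood above them. Base composition also differed, with a median GC content of 46.3% at the counterparts, 44.3% in their flanks, 48.3% at other peaks and 62.7% at 5' ends. Its part in these shares was not tested.

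Further motifs were searched on both strands in the same windows. RUNX letters (TGTGGT) stood in 22.2% of counterpart windows, 21.2% of their flanks, 19.0% of other peaks, 11.0% of 5'-end peaks and 16.8% of all promoters. E-box letters (CAGATG or CAGCTG) stood in 33.9%, 31.4%, 31.4%, 24.4% and 30.6% of the same windows in the same order. The NFE2 or AP-1 letters (TGAGTCA) were at 6.68%, 5.65%, 6.05%, 2.56% and 5.20%. CACCC-type letters of KLF factors (CCACACCC or CCCCACCC or CCGCACCC) were at 11.0% in counterparts, 7.02% in their flanks, 12.2% at other peaks, 15.9% at 5'-end peaks and 14.5% in all promoters, so that they too were more frequent at the counterparts than in their flanks, but most frequent at 5' ends. The median number of CG pairs was 5 in counterparts, 3 in their flanks and 21 at 5'-end peaks, and the observed over expected ratio of CG was 0.319, 0.188 and 0.750. At the median, the counterparts were thus closer to their flanks than to the 5'-end peaks in CG content.

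**Figure D5:**
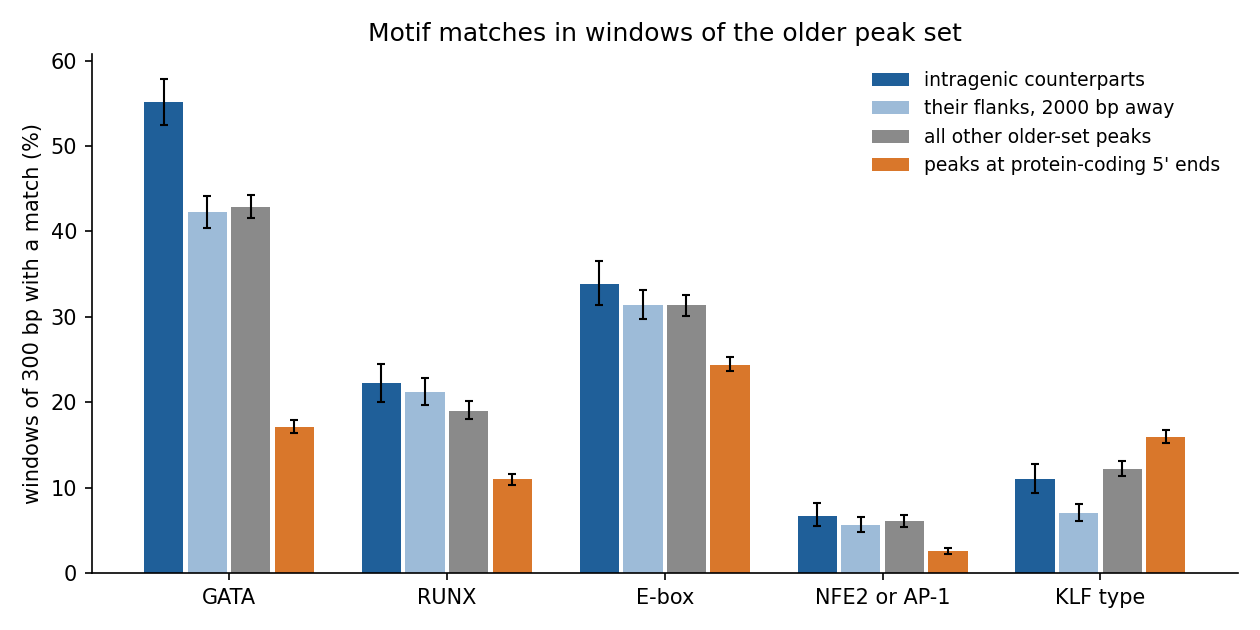
Share of 300 bp windows of the older set with at least 1 match on either strand, for 5 motifs, in intragenic counterparts (dark blue), windows 2000 bp to either side of them (light blue), all other older-set peaks (grey) and peaks on protein-coding 5' ends (orange). Bars are 95% Wilson intervals for counting error. GATA matches are in 55.2% of counterparts, 42.3% of their flanks, 42.9% of other peaks and 17.1% of 5'-end peaks.

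The cell type was checked by markers at the 5' end. Of 13 erythroid markers 11 were marked in both replicates, against 0 of 7 of granulocytes and macrophages, 0 of 4 of B cells and 0 of 4 of T cells. Megakaryocyte markers were marked in 3 of 4, stem and progenitor markers in 1 of 4 and fibroblast markers in 1 of 3. The erythroid markers that were not marked at the annotated 5' end were Gata1 and Hbb-bs. Hosts of a weak intragenic peak were 4 of 13 erythroid, 1 of 7 granulocyte and macrophage, 1 of 4 B cell and 0 of 4 T cell markers. So were 1 of 4 megakaryocyte, 2 of 4 stem and progenitor and 1 of 3 fibroblast markers. Over all eligible genes, 53.0% were marked and 19.0% were hosts. The host counts take every marker, eligible or not, while the 19.0% is over eligible genes alone. Of the 16 genes on the globin list, for example, only 4 were eligible. The host counts are also small, so nothing about erythroid markers is read from them. The 5' end marks describe promoters, and the part of any other cell type in the weak intragenic peaks was not tested.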

How the data were processed

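The authors deposited called peaks, with 1 set per replicate, a pooled set and a replicated set on mm10, and an older set on mm9, per the file headers and the notes beside them. The deposited enrichment value is a signal per peak whose scale is not stated, and the deposited p-values and q-values are on a −log10 scale. The aligner, caller and thresholds are not given in the sources used here. No column of per-sample values was left out.

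Peaks of chromosomes 1 to 19 and the sex chromosomes were set against a RefSeq gene table of GRCm38. Strand came from the RefSeq promoter table for 27025 genes, the RefSeq miRNA table for 1005 and GENCODE M1 names for 8364 by symbol and 962 by synonym, and 12587 of 49943 genes without one had both ends treated as 5' ends. GENCODE M1 coordinates on NCBIM37 were used for the older set alone, with no conversion of coordinates. Overlap means at least 1 bp, and distances to members in named genes run from the centre.

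The members and the 14 gene lists were chosen with earlier results of these data known, and no set test was run. Named are the 10 hosts with most members, the 10 widest members, the 5 highest and 5 lowest, erythroid-list hosts and up to 3 hosts of other lists, apart from items not reported here. Values of Jak2, Zfpm1 and the internal starts, the count of members whose host has a RefSeq promoter entry, and the choice of sequences printed, were added after the values were seen. Alternatives changed the distance, threshold, q-value, overlap, window, gene set and peak set. Functions were tested on simulated data. Python 3.11.15, pandas 2.3.3, SciPy 1.17.1, pysam 0.24.0 and samtools 1.23.1 were used.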

Additional observations from a re-analysis of the deposited data

How the results depend on the processing

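Of 59 recomputed values, 31 moved by less than the spread between replicates, the counting interval or 1.5 times, and 28 by more. For the share of eligible genes that hosted a member, the spread between replicates was 0. Every alternative of that share was therefore bound to be among the 28, however small its change. The number of weak intragenic peaks was 6396. It was 4097 with values below 5, between 4797 and 9024 under the other settings on the merged sets, and 9063 to 9253 when a replicate was left out. The share overlapped by both replicates was 87.8%, with 81.6% for values below 5 and 77.9% when 50% of the peak had to overlap. A single replicate overlapped 92.9% to 94.7%, which cannot be below the share for both. Marked hosts were 54.1%, with 56.5% at a distance over 2500 bp, 51.9% over 10000 bp, 56.1% for values below 5, 53.2% in the pooled set, 52.4% and 56.0% in windows of 500 and 2000 bp, and 54.3% to 55.5% without a replicate. Eligible genes that hosted a member were 19.0%, with 20.2% over 2500 bp, 18.4% over 10000 bp, 14.3% for values below 5, 18.7% at a −log10 q of at least 2, 19.4% without genes that lack a strand, 20.1% with protein-coding 5' ends only, 19.2% by midpoint, 22.6% in the pooled set and 22.3% in either replicate alone. Erythroid-list hosts were 48.5%, with 38.3% over 10000 bp, 40.2% for values below 5 and 47.4% to 55.7% without a replicate, each above the share over all eligible genes. Counterparts in introns were 81.4%, with 83.5% over 10000 bp. Those with a GATA match were 55.2%, with 41.1% in windows of 200 bp and 72.9% in windows of 500 bp. A wider window can only gain matches, and the other classes of windows were not recomputed at these widths. The comparison between classes was therefore not checked by them. No paired analysis was possible because there was 1 group. Without read counts, depth sets an unknown limit on the weakest peaks, and the threshold of 10 is read on a scale that is not stated.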
